A study of Oryctolagus cuniculus with 36 samples.

Results

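The genes described here are 150 rabbit genes, of like level in liver and terminal ileum under a wide bound, whose level was lower in embolized than in non-embolized liver lobes, both after obeticholic acid (OCA) and after vehicle. They were drawn from the 5859 genes, of 9419 listed, that had a mean of at least 50 normalized counts in liver and a liver mean + 1 less than 8-fold from the ileum mean + 1, where each library had been scaled to a total of 1000000. Because of the added 1, the bound also admits genes of low liver level that are at or near 0 in ileum. For each of these genes the mean log2(normalized count + 1) of the non-embolized lobe was subtracted from that of the embolized lobe, once for each treatment, and the 150 genes were taken in which the less negative of these 2 lobe differences was lowest. The genes were thus selected on their measured lobe differences, and everything given on those differences is a description without a test. Of 3 genes that the rule named to be left out, 1 met its conditions on level and tissue. The lobe differences of that gene, −6.42 after OCA and −5.89 after vehicle, were lower than those of any listed gene.

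Portal vein embolization blocks the portal branches to part of the liver. The lobes that lose portal blood shrink while the other lobes grow, and surgeons use this growth before large liver resections. OCA is a semisynthetic bile acid and an agonist of FXR, the nuclear receptor that governs bile acid synthesis and transport in hepatocytes and enterocytes. The end of the ileum reabsorbs bile acids, and there FXR drives release of a hormone that reaches the liver with the portal blood.

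RNA-seq was done on 36 libraries from wild-type rabbits, all subjected to embolization and pre-treated with OCA or vehicle. The groups were the embolized cranial lobe after OCA and after vehicle, the non-embolized caudal lobe after OCA and after vehicle, and the terminal ileum after OCA and after vehicle, with 6 libraries in each. The labels give no age, dose or time after embolization. The embolized lobe was always the cranial one, so effects of embolization and of position in the liver cannot be told apart. The samples were whole tissue, so fewer cells of a type and less RNA per cell cannot be told apart either.

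Values were deposited as counts per gene after division by a size factor of each library. The reads recovered from them ranged from 12 to 27.3 M (where M is 1000000) per liver library and from 11.2 to 24.5 M per ileum library. Liver and ileum had been normalized in separate tables, and each test stayed within 1 of them. Gene names are absent from the tables and 0 of the 9419 IDs matched the RefSeq table used here, so genes appear under their Ensembl IDs, their functions are not described, and the tissue labels could not be checked against named markers. A few IDs are given for each comparison, and the other genes are described by counts and ranges.

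The 150 genes took a small part of the liver transcriptome. They held 0.227 ± 0.056% of the normalized counts in the embolized lobe after OCA and 0.195 ± 0.0596% after vehicle, against 0.768 ± 0.108% in the non-embolized lobe after OCA and 0.702 ± 0.0575% after vehicle (SD, n = 6 each). Their mean liver level ran from 50.5 to 15971 normalized counts with a median of 153, and 55 of them lay under 100. Only 11 reached 1000. Over the 5859 genes eligible for selection the median was 283.

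The lobe differences, embolized minus non-embolized, had a median of −2.16 after OCA and −2.48 after vehicle on the log2 scale. After OCA they ran from −3.88 to −1.28, and after vehicle from −5.03 to −1.27. In 87 genes the embolized lobe was at least 4-fold lower under both treatments, and in 12 at least 8-fold. The last gene taken had −1.27 as its less negative difference and the first one outside had −1.24, so the list ends within a continuous range. After OCA, 134 of the 150 genes had every embolized library below every non-embolized one, against 7.47% of the 8653 genes tested in liver. After vehicle 118 did, against 5.94%. Both held for 111 genes, against 3.7%. Since the rule chose the genes on these lobe differences, nothing is read from these counts.

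ENSOCUG00000001652 had the lowest less-negative difference of all. It ran from 15.2 over a median of 46.8 to 130 normalized counts in the embolized lobe after OCA, against 294 over 474 to 971 in the non-embolized lobe after OCA. After vehicle it ran from 4.42 over 25.1 to 126 in the embolized lobe and from 231 over 455 to 654 in the non-embolized lobe. The lobes did not overlap under either treatment. The log2 lobe difference was −3.33 after OCA and −4.18 after vehicle. ENSOCUG00000017492, the next in rank, ran from 76.4 over 114 to 496 in the embolized lobe after OCA, against 1073 over 1315 to 2200 in the non-embolized lobe (−3.29). After vehicle it ran from 14.7 over 67.0 to 319 in the embolized lobe and from 366 over 902 to 1629 in the non-embolized lobe (−3.52). In both genes embolized OCA 4 and embolized vehicle 5 held the highest values of their groups.

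**Figure D1:**
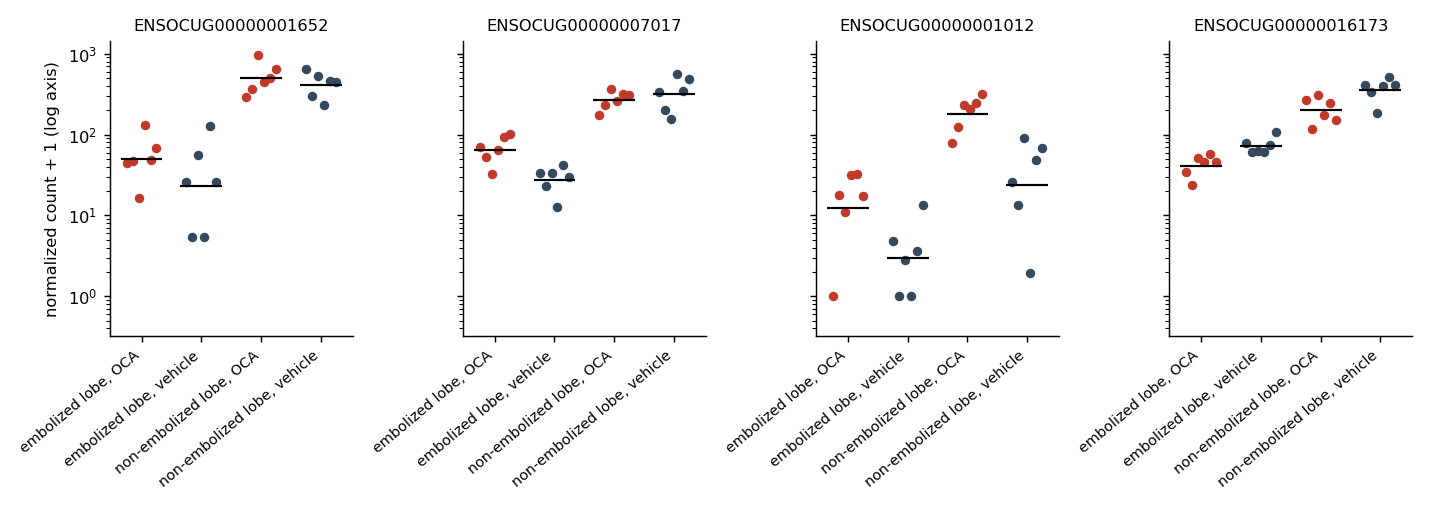
Normalized count + 1 on a log axis in the 24 liver libraries for 4 genes of the list, with OCA libraries in red, vehicle libraries in dark blue and a black bar at the mean of the log values. ENSOCUG00000001652 is the gene with the lowest lobe difference by the rule, ENSOCUG00000007017 and ENSOCUG00000001012 lie higher after OCA in 1 or both lobes without passing the test, and every embolized OCA library of ENSOCUG00000016173 lies below every embolized vehicle library.

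The rule bounded the ratio of liver to ileum but did not choose within those bounds, and within them the list lay closer to equal levels than the eligible genes. On the scaled libraries the log2 ratio of the liver mean + 1 over the ileum mean + 1 had a median of −0.26 in the 150 genes, with quartiles of −0.72 and 0.16. Over the 5859 eligible genes the median was −1.08, with quartiles of −1.69 and −0.42. Less than 2-fold separated the tissues in 111 of the 150 genes, or 74%, against 40.7% of the eligible genes. Another 14, or 9.33%, were over 2-fold higher in liver, against 6.11% of the eligible genes. Over 2-fold higher in ileum were 25, or 16.7%, against 53.1%. The level was higher in ileum than in liver in 96 of the 150, or 64%, against 84.2%, so the list lay further toward liver than the eligible genes. These ratios set 2 separately normalized tables side by side and are levels of whole tissues. The liver mean takes in the embolized libraries, in which the genes were chosen to be low. The ileum mean takes in ileum OCA 1, in which many listed genes were high, as described below. The median group mean of the listed genes in ileum was 208 normalized counts after OCA and 126 after vehicle. What part this has in the ratios was not tested. In ileum the genes averaged from 0 to 1409 counts per 1000000 with a median of 11.1, and in liver from 3.04 to 952 with a median of 9.52. Genes were tested in a tissue where 6 or more libraries had normalized counts of 10 or more, which all 150 met in liver and 145 in ileum.

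Whether OCA altered these genes was asked first in the embolized lobe. The direction of the OCA effect was not fixed by the rule, which treats both treatments alike, although the same libraries chose the genes. The log2 difference, OCA minus vehicle, had a median of 0.48 over the 150 genes, against 0.02 over all 8653 genes tested, and it was above 0 in 125 of the 150, or 83.3%, against 53% of all genes. No gene of the list passed the test (limma-trend, smallest adjusted p = 0.0997), where 0.196% of all genes were called and 0.0578% were called higher. At an unadjusted p under 0.05 there were 37 of the 150, or 24.7%, against 12.7% of all genes. On the recovered reads edgeR called 0 of the 150, against 0.196% of all genes, and DESeq2 called 3, all higher after OCA. Over all 8653 genes DESeq2 called 1.06%, 24 of them higher and 68 lower. At an unadjusted p under 0.05 edgeR had 16 of the 150, or 10.7%, against 10.4% of all genes, and DESeq2 had 20, or 13.3%, against 11.3%. The larger share at an unadjusted p under 0.05 was thus seen with limma-trend and hardly with the count models. The listed genes deviated together over libraries, as described below. These counts, and those in the other lobe and in ileum, are therefore not separate readings for each gene.

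The count of calls rested on embolized vehicle 5. Without this library 17 of the 150 genes passed, all of them higher after OCA, which is 11.3%, against 2.24% of all genes that were called higher in the same fit. Their log2 differences ran from 0.96 to 3.03 with a median of 1.38, and their adjusted p from 0.00435 to 0.0466 (limma-trend). Without embolized vehicle 3 there were 2 calls, both higher, where 0.439% of all genes were called, 16 of them higher and 22 lower. Without embolized OCA 3 there was 1, also higher, where 0.451% were called, 10 of them higher and 29 lower. The other 9 fits that left out 1 library gave 0, against 0.0925 to 0.324% of all genes. The median over the 150 genes was 0.64 without embolized vehicle 5, but 0.29 without embolized OCA 4, 0.30 without embolized vehicle 4 and 0.34 without embolized vehicle 2. It stayed above 0 in all 12 such fits. The count at an unadjusted p under 0.05 was 17, or 11.3%, against 10.6% of all genes, without embolized vehicle 4. It was 24, or 16%, against 13.1%, without embolized OCA 4, and 68, or 45.3%, against 17.5%, without embolized vehicle 5. With only the 2 embolized groups fitted it was also 17, against 9.28% of all genes.

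The gene of lowest p in the embolized lobe was ENSOCUG00000007017. It ran from 31.8 over 66.1 to 100.5 normalized counts after OCA, against 11.8 over 30.4 to 40.6 after vehicle. The groups overlapped only in that OCA 3 lay below vehicle 1, 3 and 5. The log2 difference was 1.25 ± 0.32 (SE, limma-trend adjusted p = 0.0997). In the non-embolized lobe, where it ran from 175 to 365 after OCA and from 157 to 555 after vehicle, the difference was −0.23 ± 0.32 (limma-trend adjusted p = 0.832). ENSOCUG00000011298 was near 0 in the embolized lobe after vehicle, with a median of 0.631 and values from 0 to 22.1, and lay between 8.89 and 33.2 after OCA (2.45 ± 0.63, limma-trend adjusted p = 0.103). Its highest vehicle value was that of vehicle 5. In the embolized vehicle libraries 1 read was worth 0.883 to 1.79 normalized counts, so its median there lay under 1 read. ENSOCUG00000007017 passed with limma-trend without embolized OCA 3 (adjusted p = 0.0388) and without embolized vehicle 5 (0.0252), and with DESeq2 (0.0195). ENSOCUG00000011298 passed with limma-trend without embolized vehicle 3 (adjusted p = 0.0273) and without embolized vehicle 5 (0.00435). Over the 24 and 23 alternatives run for these genes the adjusted p ran from 0.0195 to 0.325 and from 0.00435 to 0.484. Their log2 differences ran from 1.03 to 1.45 and from 1.26 to 3.03.

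The genes of lowest p among those lower after OCA were ENSOCUG00000024443 and ENSOCUG00000016173. ENSOCUG00000024443 ran from 459 over 713 to 1471 normalized counts after OCA, against 881 over 1351 to 1952 after vehicle (−0.84 ± 0.26, limma-trend adjusted p = 0.179). Here the groups overlapped. ENSOCUG00000016173 ran from 23.0 over 44.6 to 56.4 after OCA, against 60.5 over 68.3 to 106 after vehicle (−0.82 ± 0.26, limma-trend adjusted p = 0.183). It was the 1 gene of the list in which every embolized OCA library lay below every vehicle library, against 0.312% of all genes. None of the 150 had every OCA library above every vehicle library, against 0.15%.

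In the non-embolized lobe the same question was asked. The median log2 difference was 0.14, against 0.00 over all genes tested, and 98 of the 150 genes, or 65.3%, lay above 0, against 50.2%. No gene of the list passed (limma-trend, smallest adjusted p = 0.0992), where 0.624% of all genes were called and 0.37% were called higher. At an unadjusted p under 0.05 there were 13 of the 150, against 14% of all genes. On the recovered reads edgeR called 0, against 0.485% of all genes, and DESeq2 called 2, 1 in each direction, against 3.06%. The edgeR fit had 14 at an unadjusted p under 0.05, or 9.33%, against 14.1%, and DESeq2 had 15, or 10%, against 15.2%. With limma-trend this count was 7 without non-embolized OCA 4 or vehicle 4, against 11.6 and 11.8% of all genes, and 26 with only the 2 non-embolized groups fitted, against 16%. None of the 150 had every OCA library above every vehicle library, against 0.832%, or every one below, against 0.89%. The median was 0.0068 without non-embolized vehicle 4, 0.035 without OCA 3, 0.083 without vehicle 2 and 0.23 without vehicle 1, so its distance from 0 rested on single libraries. Without non-embolized vehicle 3 there was 1 call, against 1.29% of all genes. The gene called was ENSOCUG00000016173 (limma-trend adjusted p = 0.0342). It passed in 3 of the 24 alternatives run for it in this lobe, over which its adjusted p ran from 0.0326 to 0.248.

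ENSOCUG00000001012 had the lowest p among the genes higher there. It ran from 78.3 over 219 to 317 normalized counts after OCA, against 0.927 over 35.8 to 89.2 after vehicle. The groups overlapped only in that OCA 1 lay below vehicle 3, and vehicle 4 was the lowest. The log2 difference was 2.92 ± 0.85 (SE, limma-trend adjusted p = 0.0992). In the embolized lobe the gene ran from 0 over 16.8 to 31.3 after OCA and from 0 over 2.24 to 12.5 after vehicle (2.06 ± 0.85, limma-trend adjusted p = 0.310). It passed in the non-embolized lobe in 3 of 23 alternatives, DESeq2 among them (adjusted p = 0.0308). Over the 23 its adjusted p there ran from 0.0272 to 0.224. ENSOCUG00000005927 ran from 2954 over 4544 to 6549 after OCA in the non-embolized lobe, against 1728 over 2433 to 3338 after vehicle (0.94 ± 0.32, limma-trend adjusted p = 0.166). Its groups overlapped only in that OCA 3 lay below vehicle 5. It passed in 1 of 24 alternatives, over which its adjusted p ran from 0.0375 to 0.344.

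ENSOCUG00000016173 was also among the lowest p of the genes lower after OCA in the non-embolized lobe. It ran from 118 over 209 to 304 normalized counts after OCA, against 182 over 402 to 514 after vehicle (−0.84 ± 0.26, limma-trend adjusted p = 0.113), so its differences in the lobes were −0.82 and −0.84. ENSOCUG00000001419 ran from 164 over 245 to 382 after OCA, against 229 over 439 to 875 after vehicle (−0.69 ± 0.27, limma-trend adjusted p = 0.244). Both pairs of groups overlapped.

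Whether the OCA effect differed between the lobes was tested as an interaction. No gene of the list and none of the 8653 passed (limma-trend, smallest adjusted p = 0.561, that of ENSOCUG00000007017), with 8 of the 150, or 5.33%, and 7.29% of all genes at an unadjusted p under 0.05. Without embolized vehicle 5 there were 25 of the 150, or 16.7%, against 10.7% of all genes, with 0 of the 150 called. In the other fits that left out 1 library there were 4 to 11, against 5.58 to 8.4% of all genes. On the recovered reads edgeR and DESeq2 called 0 of the 150, against 0 and 0.0578% of all genes. At an unadjusted p under 0.05 edgeR had 3 of the 150, or 2%, against 6.4%, and DESeq2 had 4, or 2.67%, against 7.27%. The OCA effect was larger in the embolized lobe than in the other in 114 of the 150 genes, against 50.8% of all genes. The rule used both lobe differences, and the interaction is the difference between them. The counts and p-values of the listed genes for the interaction are therefore a description. They do not decide whether the larger median OCA effect in the embolized lobe differs from that in the other lobe.

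**Figure D2:**
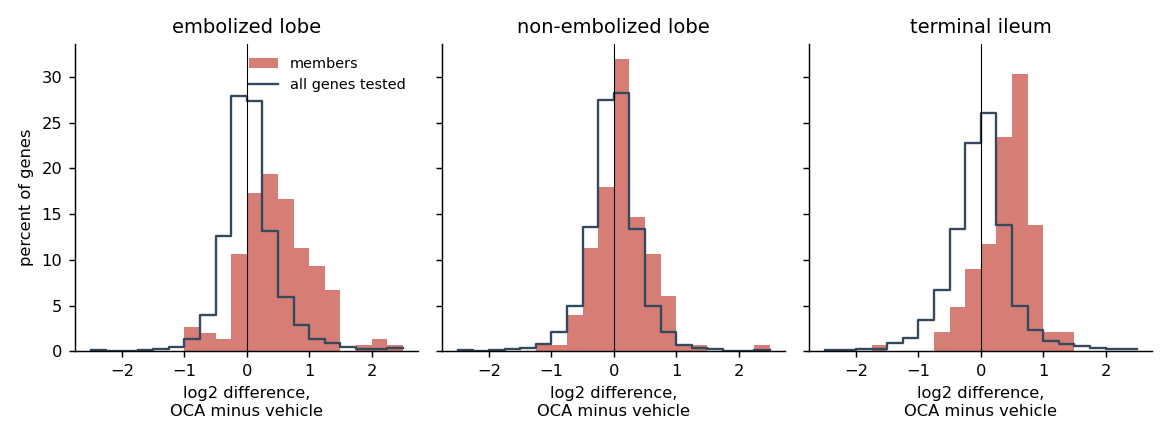
Percent of genes by log2 difference, OCA minus vehicle, in bins of 0.25, for the listed genes (red bars) and all genes tested (dark blue line) in the 3 tissues, with values beyond the axis in the outermost bins. Of the listed genes, 83.3% lie above 0 in the embolized lobe (median 0.48) and 65.3% in the non-embolized lobe (median 0.14). In ileum 83.4% lie above 0 (median 0.48, or 0.16 without ileum OCA 1).

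In the terminal ileum the comparison of OCA with vehicle used libraries that had entered the rule only through their overall mean. The median log2 difference over the 145 genes tested was 0.48, against 0.00 over all 9010 genes, and 121 of the 145, or 83.4%, lay above 0, against 50.5%. No gene of the list passed (limma-trend, smallest adjusted p = 0.291), and 0% of all genes were called. At an unadjusted p under 0.05 there were 13 of the 145, or 8.97%, against 7.64% of all genes, and without ileum vehicle 2 there were 8, against 5.93%. On the recovered reads edgeR called 0, against 0% of all genes, and DESeq2 called 1, against 0.888%. The edgeR fit had 42 at an unadjusted p under 0.05, or 29%, against 10.8%, and DESeq2 had 22, or 15.2%, against 11.3%. The median rested on a single library: without ileum OCA 1 the median was 0.16 and 96 of the 145 genes lay above 0, against 50% of all genes.

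ENSOCUG00000010438 had the lowest p in ileum and did not follow that library. It ran from 580 over 602 to 690 normalized counts after OCA, against 319 over 403 to 488 after vehicle, without overlap (0.62 ± 0.13, SE, limma-trend adjusted p = 0.291). It was the gene DESeq2 called there (adjusted p = 0.000355), and over 23 alternatives its adjusted p ran up to 0.728. In liver its OCA effect was −0.011 ± 0.20 in the embolized and −0.014 ± 0.20 in the non-embolized lobe. ENSOCUG00000002458 ran from 75.6 over 92.5 to 166 after OCA, against 39.7 over 54.9 to 73.1 after vehicle (0.83 ± 0.25, limma-trend adjusted p = 0.430), with OCA 1 the highest. In 3 of the 145 genes every OCA library lay above every vehicle library, against 0.377% of all genes. They were these 2 and ENSOCUG00000011340, named after its values were seen, which was at 1087 in OCA 1 and between 214 and 274 in the other OCA libraries, against 80.0 to 182 after vehicle. None had every OCA library below every vehicle library, against 0.322%.

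Among genes lower in ileum after OCA, ENSOCUG00000016776 ran from 1365 over 1568 to 1889 normalized counts after OCA, against 1667 over 2066 to 3160 after vehicle (−0.44 ± 0.16, SE, limma-trend adjusted p = 0.575). ENSOCUG00000001375 ran from 53.8 over 102 to 834 after OCA and from 77.4 over 350 to 3766 after vehicle (−1.72 ± 0.87, limma-trend adjusted p = 0.665). Its vehicle range was set by vehicle 6, the highest, and its OCA range by OCA 1. Both pairs of groups overlapped.

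The libraries of a group differed in the level of the whole list. In the embolized lobe the median over the 150 genes ran from 43.8 to 95.0 normalized counts after OCA and from 20.6 to 75.1 after vehicle. The highest libraries were OCA 4 and vehicle 5, and the lowest was vehicle 4. In the non-embolized lobe it ran from 189 to 330 after OCA, with OCA 3 the highest, and from 148 to 278 after vehicle, with vehicle 4 the lowest again. Every embolized library lay below every non-embolized one in this median. The rule chose the genes on the lobe difference in these libraries, so nothing is read from this separation. The SD over libraries of the log2 values had a median of 0.66 over the genes in the embolized lobe after OCA, against 0.40 over all genes tested, and of 0.95 after vehicle, against 0.44. In the non-embolized lobe it was 0.41 after OCA, against 0.38, and 0.51 after vehicle, against 0.34. The median group mean of the listed genes was 55.9 normalized counts in the embolized lobe after OCA, against 168 over all genes, and 44.5 after vehicle, against 165. Low counts vary more, and the part of this in the spread was not tested. In the non-embolized lobe the listed genes had the higher median group mean, 256 against 169 after OCA and 233 against 165 after vehicle.

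The genes deviated together. In embolized vehicle 5, 80 of the 150 genes were at least 2-fold above the median of the other vehicle libraries of that lobe, or 53.3%, against 13.5% of all genes tested, and in embolized OCA 4 there were 68, or 45.3%, against 11.4%. In embolized vehicle 4, 68 of the 150 were at least 2-fold below, or 45.3%, against 16% of all genes tested. The list nevertheless took 0.258% of the counts of that library, within the range of the other vehicle libraries, 0.124 to 0.267%. This share weighs genes by their level. The normalized counts of these 3 libraries summed to 12.3, 11.9 and 19.6 M. The first and the second sum were the lowest of their groups, and what this has to do with the level of the list was not tested. The highest non-embolized library, OCA 3, had a sum of 17.1 M within a group that ran from 13.3 to 19.4 M.

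**Figure D3:**
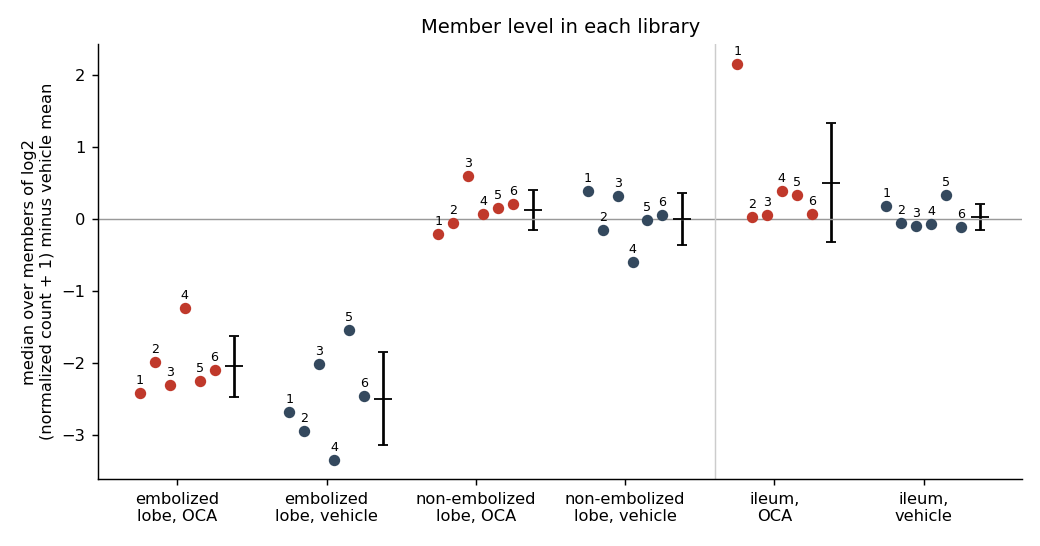
Median over the listed genes of the log2 difference from the mean of the non-embolized vehicle libraries (4 liver groups) or of the ileum vehicle libraries (ileum groups), 1 point for each library with its replicate number, and the mean ± SD over 6 libraries at the right of each group. Ileum OCA 1 lies at 2.15 and the other ileum libraries between −0.12 and 0.39, and the embolized libraries spread from −3.34 to −1.24.

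To describe this co-variation, the deviation of each library from its group mean was taken for each gene, which removes the lobe difference that the rule used. Over the 24 liver libraries the correlation between pairs of listed genes had a median of 0.34, and between pairs of all genes tested it was 0.00. It was 0.36 within the 12 embolized libraries and 0.42 within the 12 non-embolized libraries. Without embolized vehicle 4, embolized vehicle 5 and embolized OCA 4 it was 0.27. The points share their libraries, and with them depth and scaling, so these values are descriptions. Each gene was also correlated with the median of the others. In 102 of the 150 genes this correlation was over 0.5, or 68%, against 7.3% of the 8503 other genes tested, and in 15 it was below 0. Only 3 genes lay between 0.4 and 0.5 and 10 between 0.5 and 0.6, so few genes sat near that mark.

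**Figure D4:**
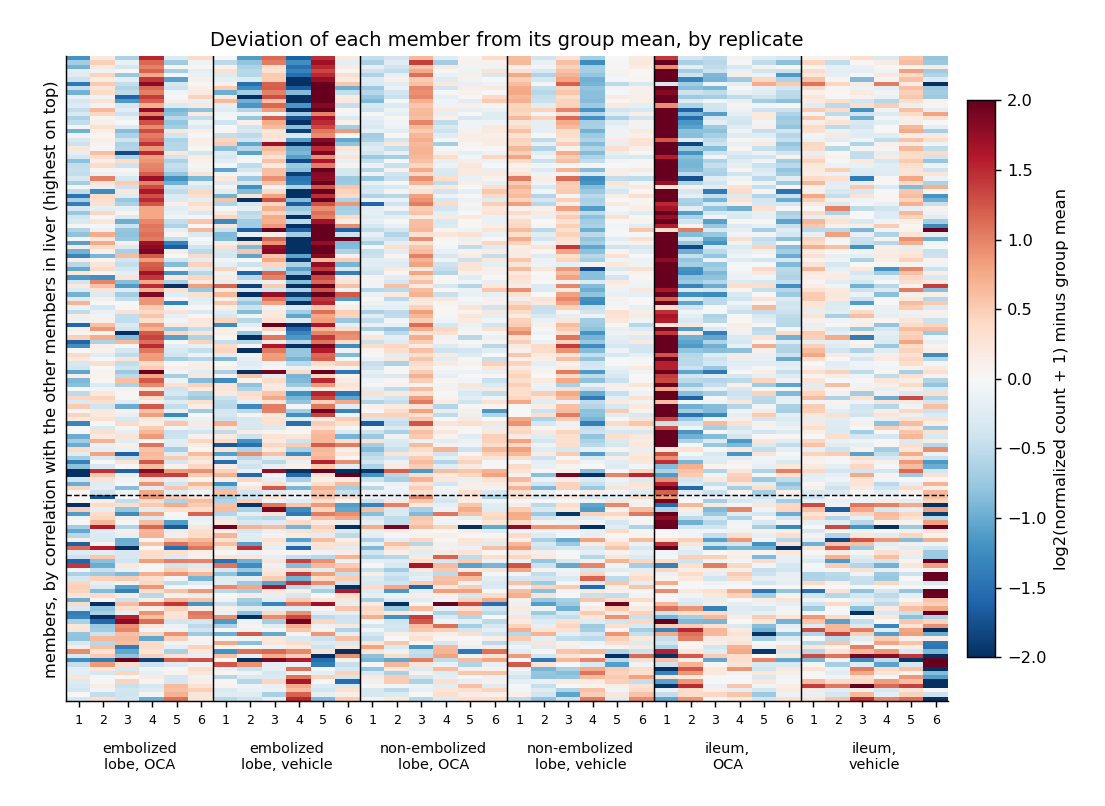
Log2(normalized count + 1) minus the mean of the group for the 150 genes (rows, sorted by their correlation with the other genes of the list in liver) in the 36 libraries (columns, with replicate numbers under each group). The 102 rows above the dashed line, with a correlation over 0.5, are red together in embolized OCA 4, embolized vehicle 5 and ileum OCA 1 and mostly blue in embolized vehicle 4.

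The 102 genes of shared liver deviation and the other 48 differed in several values. The median liver level was 123 normalized counts in the 102 and 218 in the 48, and of the 11 genes that reached 1000 only 1 was among the 102. Less than 2-fold separated liver and ileum in 84 of the 102 and in 27 of the 48. The lobe difference had a median of −2.33 after OCA and −2.87 after vehicle in the 102, against −1.74 and −1.84 in the 48. The median OCA effect in the embolized lobe was 0.55 in the 102, with 95 above 0, and 0.12 in the 48, with 30 above 0. Of the 17 genes called without embolized vehicle 5, 15 were among the 102. Both sets were formed from the liver values, so none of these differences was tested.

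Genes of shared liver deviation also stood apart in a single ileum library, which the sorting in liver had not used. In ileum OCA 1, 98 of the 145 genes tested were at least 2-fold above the median of the other OCA libraries, or 67.6%, against 19.9% of all 9010 genes. Among the genes with a liver correlation over 0.5 there were 89 of 101, or 88.1%, with a median log2 ratio of 2.51. Among the others there were 9 of 44, or 20.5%, with a median of 0.017. Genes outside the list that had a liver correlation over 0.5 with it had 281 of 605 at least 2-fold above, or 46.4%, with a median of 0.83. Genes outside the list with a lower correlation had 16.5% and a median of −0.022.

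ENSOCUG00000001652 was at 1587 normalized counts in ileum OCA 1 and between 133 and 168 in the other OCA libraries, against 77.6 to 189 after vehicle. ENSOCUG00000017492 was at 3426 in ileum OCA 1 and between 143 and 408 in the others, against 115 to 408 after vehicle. The whole list took 1.17% of the normalized counts in ileum OCA 1 and 0.516 to 0.685% in the other OCA libraries, against 0.296 to 0.631% after vehicle. The sum of normalized counts of this library, 11.8 M, was the lowest of the ileum libraries. Without ileum OCA 1 the median OCA effect in ileum was 0.14 in the genes of liver correlation over 0.5 and 0.19 in the others, against 0.54 and 0.19 with it. Without it the median correlation between pairs of listed genes over the remaining 11 ileum libraries was 0.15, against 0.48 over all 12, and in 55 of the 145 the correlation with the others was over 0.5, or 37.9%, against 2.22% of the 8865 genes outside the list.

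**Figure D5:**
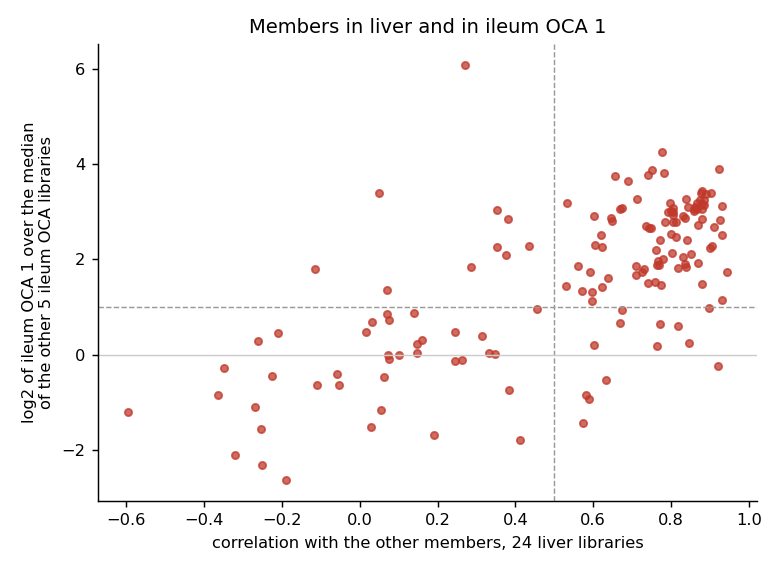
Each point is 1 of the 150 genes, with its correlation with the median of the others over 24 liver libraries (deviations from group means) against the log2 ratio of its value in ileum OCA 1 over the median of the other 5 ileum OCA libraries, each with 1 added. Dashed lines mark a correlation of 0.5 and a ratio of 2-fold, and most genes right of the vertical line lie above the horizontal one.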

How the data were processed

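The authors deposited a normalized signal: counts per gene that had been divided by a size factor of each library. STAR, RSEM and DESeq2 were used per the submitters' processing notes; tool versions, genome build, annotation: not given in the sources used here. Of the values, 100% were whole multiples of the smallest step of their library within 0.01, which gave the recovered reads. The smallest chi-square per degree of freedom among 90 pairs of libraries within groups was 38.7, so all were kept as separate samples. Nothing in the labels states that the libraries of a group are from separate rabbits: p-values then reflect the spread among libraries alone, and this may be technical.

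The genes, lists and tests were chosen with earlier results of these data known. The tissue ratio used columns scaled to 1000000; the mean of at least 50 and the lobe differences used the deposited values, a reading of the rule under which 141 of 150 genes are the same as with lobe differences on scaled columns. The test was limma-trend (limma 3.58.1, R 4.3.3) on log2(normalized count + 1), over all genes with at least 10 in at least 6 libraries, fitted on 4 liver groups together or 2 ileum groups, with Benjamini-Hochberg adjustment at 0.05 over all genes. It was tested on simulated data in which each gene varied on its own, unlike the listed genes, which deviated together. For the interaction no share of recovered changes was required there. edgeR 4.0.16 (quasi-likelihood, TMM) and DESeq2 1.42.0 were run on recovered reads. Fold changes on this scale understate changes of low genes. IDs named are the 2 genes of lowest rank by the rule and, for each OCA comparison, the 2 of largest difference among those that passed or, since none passed, of lowest p in each direction. Gene lists by symbol, cell type markers among them, were not used because 0 IDs matched.

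Replicate numbers were checked as pairs by correlating deviations from group means over all genes. Same-numbered libraries of the vehicle lobes had correlations of 0.14 to 0.53, all over 0.1, which meets the mark for pairs, with no label behind it. Between the OCA lobes 5 of 6 exceeded 0.1. The fits reported and the co-variation nevertheless treat lobe libraries as independent. A block that joined same-numbered libraries of the lobes was run as an alternative for the interaction only. For the OCA comparisons the block joined same-numbered OCA and vehicle libraries, so the pairing of lobes was not modelled there. No column was left without a sample.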

Additional observations from a re-analysis of the deposited data

Results flagged for a closer look

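A library was marked where its gap to the nearest other library of its group of 6 made up more of the group's log2 range than Dixon's critical value for 6 samples, which chance gives for about 1 in 20 groups. For the whole list this held in 1 of 6 groups: ileum OCA 1, where the median deviation of the genes from the group mean was 1.58. Gene by gene, 51% of the 145 genes were marked in the ileum OCA group, against 15.6% of all genes tested there, and 12.4% in ileum after vehicle, against 16.6%. In the 4 liver groups it was 4 to 8.67% of the listed genes, against 4.7 to 7.94% of all genes tested.

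Among the genes named, ileum OCA 1 was the highest for ENSOCUG00000001652 (1587 normalized counts), ENSOCUG00000017492 (3426), ENSOCUG00000002458 (166) and ENSOCUG00000001375 (834), and the lowest for ENSOCUG00000001012 (41.9). Ileum vehicle 6 was the highest for ENSOCUG00000011298 (575) and the lowest for ENSOCUG00000024443 (62.2) and ENSOCUG00000005927 (975). In liver, embolized OCA 1 was at 0 for ENSOCUG00000001012, below the rest of its group, and non-embolized vehicle 5 was the highest for ENSOCUG00000010438 (652).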

How the results depend on the processing

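The number of listed genes called for OCA in the embolized lobe, 0, was 1 with sample quality weights, 1 with a term for replicates 1 to 3 against 4 to 6 and 3 with DESeq2, and ran from 0 to 17 when 1 library was left out. In the non-embolized lobe, also 0, it was 1 with a pseudocount of 5, 3 with sample quality weights and 2 with DESeq2, and ran from 0 to 1 when 1 library was left out. In ileum, 0, it was 2 with sample quality weights and 1 with DESeq2, and 0 without any 1 library. The cause of these changes was not tested. For the interaction it was 0 under all 36 alternatives run. A replicate block gave 0 listed genes in each comparison, and for the interaction 11 of the 150 (7.33%) at an unadjusted p under 0.05, against 11.1% of all genes; numbers shared by OCA and vehicle libraries showed no common pairing, with correlations over 0.1 in 2, 4 and 1 of 6 pairs in the embolized lobe, non-embolized lobe and ileum. Fitting only the 2 groups compared, both other scalings, both other filters, a pseudocount of 0.5 and edgeR also gave 0. Over all genes the 17 calls in the embolized lobe became 105 with weights, 92 with DESeq2, 38 with the term, 27 with a pseudocount of 5, 5 with the block, 0 with only 2 groups and 8 to 298 without 1 library. The 54 in the non-embolized lobe became 398, 265, 113 with the same first 3, and 66 with a pseudocount of 5. They became 29 with equal totals, 32 with only 2 groups, 4 with the block and 9 to 112 without 1 library. The 0 in ileum became 349 with weights and 80 with DESeq2, and the 0 for the interaction became 5 with DESeq2 and 1 without embolized vehicle 5.

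The median OCA effect ran from 0.29 to 0.64 in the embolized lobe, from 0.0068 to 0.23 in the non-embolized lobe and from 0.16 to 0.58 in ileum over the fits that left out 1 library, and from 0.40 to 0.59, 0.13 to 0.14 and 0.46 to 0.54 under 2 other scalings, 2 other pseudocounts and the other choice of genes. With sample quality weights it was 0.41, 0.20 and 0.11, with edgeR 0.35, 0.12 and 0.73, with DESeq2 0.34, 0.12 and 0.72, and with the filter in every library, which left 92 listed genes in liver and 140 in ileum, 0.25, 0.12 and 0.48. Equal totals shifted the median of all genes in the embolized lobe to 0.15; that of the list was then 0.59. Alternatives for the lobe differences, signs and co-variation were chosen after the data had been seen. Under both other scalings and pseudocounts, with the other choice of genes and without each library, the median lobe difference ran from −2.33 to −2.05 after OCA and from −2.70 to −2.29 after vehicle. No gene named for OCA changed sign in any alternative of the comparison for which it was named. The genes were named for the lowest p in their direction there, and the other comparisons were not followed in this way.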
